A study of Mus musculus with 5 samples.

Results

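The 29 genes described here make the building blocks of DNA and RNA. They encode enzymes of serine synthesis, the folate-bound one-carbon cycle, purine and pyrimidine synthesis and deoxynucleotide supply. They were taken from a list of symbols, and all 29 were found among the 17739 genes of the deposited expression table. RNA was profiled in 5 cerebellar tumours of 1 group, so there was no control group. The mice were Math1-Cre;Gli2A animals, bred from Math1-Cre and R26;Gli2A parents, and were fed doxycycline (DOX) from embryonic day 0. The labels call GLI2 active in all 5 tumours and the cell type medulloblastoma, and do not give strain, sex or age. Math1-Cre is active in granule neuron progenitors, and tumours from cells without Math1-Cre activity are not modelled. The cell of origin was not tested. Tumours are named by the numbers in their titles, namely 1, 5, 8, 14 and 15. The labels do not say that each is a separate animal, so the spread between them may be partly technical.

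Serine made from a glycolytic intermediate gives up a carbon to folate, in mitochondria and in the cytosol. Folate-bound carbons are then built into the purine ring and into thymidylate. The pyrimidine ring is made by a separate route, and ribonucleotide reductase turns ribonucleotides of both kinds into DNA precursors. Dividing cells, granule neuron progenitors among them, depend on these routes, and several of the enzymes are targets of antiproliferative drugs.

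Values are on a log2 scale, read as regularised-log values, in which a difference of 1 unit is a 2-fold difference. They are not corrected for gene length. Levels of different genes were therefore compared after subtracting log2 of the exon length in kilobases, from GENCODE M21 on GRCm38. Uncorrected means also served to pick which genes of a list are named, and give no order of levels. Medians over lists of genes were left uncorrected as well. The depth of each library is unknown. Column medians lay between 8.51 and 8.58. The granule neuron progenitor markers had a list median of 12.97 ± 0.12 (SD, n = 5), with Zic1 highest, and no listed marker was at 0. Atoh1 had the lowest mean of that list, 8.62, and ran from 8.00 to 9.49. Differentiating granule neuron markers had a list median of 14.11, and astrocyte and Bergmann glia markers one of 11.98. Without a control group these levels do not test the label. Markers of other cells were present as well, and they differed between tumours. Mature granule neuron markers had a median of 8.58 in tumour 5 and of 7.16 to 7.77 in the others. Oligodendrocyte markers stood at 11.91 in tumour 5 and 10.47 in tumour 1, and microglia and macrophage markers at 10.02 in tumour 5 and 9.27 to 9.58 in the others. In bulk RNA, fewer cells of a type and less RNA per cell cannot be told apart.

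All 29 genes were expressed in every tumour. Their uncorrected means ran from 8.24 for Psph to 12.75 for Psat1, and 19 of 29 reached a mean of 10. The median over the 29 genes was 10.34 in tumour 1, 10.30 in tumour 5, 10.42 in tumour 8, 10.61 in tumour 14 and 10.52 in tumour 15, or 10.44 ± 0.13 (SD, n = 5). Each median is the value of the middle gene, namely Phgdh in tumours 1, 8 and 14, Ctps2 in tumour 5 and Prps1 in tumour 15. It gives no order of the tumours: tumour 15 was second highest by it, but its median deviation over the genes, given below, was -0.08. Over all genes of the table the mean of the column medians was 8.54. Per exon length, 15 of 29 lay above the 75th percentile, against 25.0% of the 17302 genes with an annotated length. Without subtracting length the count was again 15 of 29, and among genes whose mean reached 5 it was 11 of 29. Psph and Dhodh were the 2 genes below the middle of all genes per exon length.

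**Figure D1:**
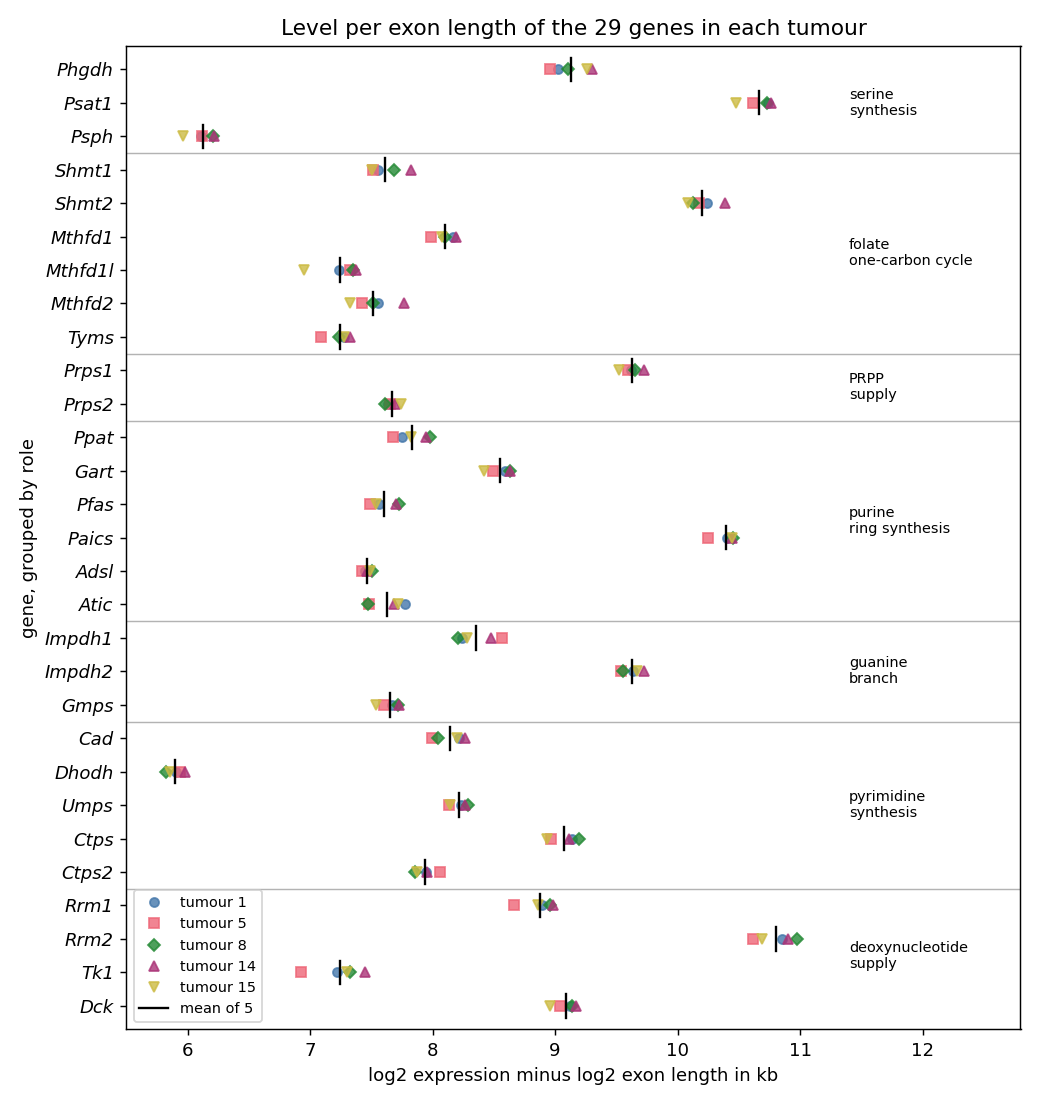
Expression of the 29 genes per exon length (log2 value minus log2 exon length in kilobases, horizontal axis), with genes on the vertical axis grouped by role. Coloured points are the 5 tumours and black ticks their means; Rrm2, Psat1, Paics and Shmt2 lie furthest right, Dhodh and Psph furthest left, and tumours differ far less than genes.

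Serine synthesis was led by its middle enzyme. Psat1, the phosphoserine aminotransferase (GRCm38 chromosome 19, 15904678 to 15947337, minus strand), had the highest uncorrected mean of the 29 genes. It stood at 12.83, 12.71, 12.82, 12.85 and 12.56 in tumours 1, 5, 8, 14 and 15, lowest in tumour 15 and next lowest in tumour 5. Per exon length it ranked at the 97.6th percentile of all genes, second among the 29 to Rrm2 at the 98.0th.

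Phgdh, the dehydrogenase that opens the route, had a different order of tumours. Its values were 10.34, 10.27, 10.42, 10.61 and 10.57 in tumours 1, 5, 8, 14 and 15, with tumour 15 next to the highest. Of 5 neural stem cell markers 4 peaked in tumour 15, and their list median was 10.08 there and 9.37 to 9.80 elsewhere; their part in the level of Phgdh was not tested. Of the 50-base stretches in Phgdh transcripts, 47.8% also occur in transcripts of other annotated genes, Gm7901 among them, so its count may be split and its level is uncertain. Psph, the phosphatase that releases free serine, read 8.22, 8.23, 8.32, 8.33 and 8.07 in tumours 1, 5, 8, 14 and 15, low in tumour 15 as for Psat1. Its mean of 8.24 ± 0.10 (SD, n = 5) was the lowest uncorrected mean of the set. Its exons share 452 bases with Cct6a on the opposite strand, and the strand setting of the counting is not given in the sources used here.

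In the one-carbon cycle the mitochondrial serine hydroxymethyltransferase exceeded the cytosolic one. Shmt2, which passes the carbon of serine to folate in mitochondria, read 11.88, 11.81, 11.76, 12.02 and 11.72 in tumours 1, 5, 8, 14 and 15. Shmt1, its cytosolic counterpart, read 9.51, 9.47, 9.64, 9.78 and 9.46 in the same tumours. Both were highest in tumour 14 and lowest in tumour 15, and their values did not overlap. Per exon length Shmt2 exceeded Shmt1 by 2.59 ± 0.10 (SD, n = 5), or 6.01-fold, in 5 of 5 tumours.

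Of the later enzymes Mthfd1 and Mthfd1l, the cytosolic one stood higher. Mthfd1, a single cytosolic protein with several folate activities, read 10.32, 10.14, 10.25, 10.34 and 10.22 in tumours 1, 5, 8, 14 and 15. Mthfd1l, the mitochondrial formate-releasing enzyme, stood at 9.38, 9.47, 9.50, 9.53 and 9.10 in tumours 1, 5, 8, 14 and 15, with tumour 15 well below the rest. The difference of Mthfd1l minus Mthfd1 was -0.86 ± 0.18 per exon length, below 0 in 5 of 5 tumours. Mthfd2, the mitochondrial methylenetetrahydrofolate dehydrogenase typical of embryonic and dividing cells, had values of 9.36, 9.22, 9.32, 9.56 and 9.12. It stood apart in tumour 14, by 0.21 from the next tumour, the largest such gap among the 29 genes. Its paralogue Mthfd2l, a gene outside the 29, read 9.35, 9.40, 9.24, 9.44 and 9.29. On the deposited scale the values of the 2 genes overlapped and Mthfd2 minus Mthfd2l averaged -0.03, while per exon length it was 0.90 ± 0.14, above 0 in 5 of 5 tumours.

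Tyms, the thymidylate synthase that uses folate to make the base specific to DNA, read 9.89, 9.70, 9.84, 9.93 and 9.88 in tumours 1, 5, 8, 14 and 15. Tumour 5 was the low one. A share of 5.25% of the 50-base stretches of Tyms is also found elsewhere, in Tyms-ps among others.

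Phosphoribosyl pyrophosphate, the sugar on which purine and pyrimidine nucleotides are assembled, is made by the synthetases Prps1 and Prps2. Prps1 read 10.62, 10.59, 10.65, 10.72 and 10.52 in tumours 1, 5, 8, 14 and 15. Prps2 read 9.59, 9.60, 9.57, 9.64 and 9.69 in the same tumours, so that tumour 15 was lowest for Prps1 and highest for Prps2. Per exon length Prps1 exceeded Prps2 by 1.96 ± 0.11, in 5 of 5 tumours. With no length subtracted the difference was 1.00. Of the 50-base stretches of Prps1, 9.93% occur in Prps1l3. Both genes and Ctps2 lie on chromosome X. The level of Xist, which is made from the inactive X chromosome, was 12.89 in tumour 8, and the other 4 tumours had 7.29 to 8.10; Ddx3y, a gene of chromosome Y, was 6.61 in tumour 8 and 9.78 to 10.03 elsewhere. Prps2 and Ctps2 had their lowest values in tumour 8 (9.57 and 10.10), and Prps1 its second highest there (10.65), so the 3 X-linked genes did not share a direction. For any gene, a difference of tumour 8 from the other 4 tumours cannot be told apart from a difference of sex.

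The purine ring genes were led by Paics, a bifunctional carboxylase and synthetase (chromosome 5, 76951307 to 76967509, plus strand). Paics read 12.05, 11.90, 12.10, 12.10 and 12.09 in tumours 1, 5, 8, 14 and 15, where tumour 5 fell below a tight group of 4. Ppat, the amidotransferase that commits the sugar to purine synthesis, lies head to head with it on the minus strand (76913249 to 76951578). It averaged 9.98 ± 0.13 and, like Paics, was highest in tumour 8 and lowest in tumour 5. The annotated exons of the pair share 272 bases on opposite strands, so some reads may not separate them. Gart, a trifunctional enzyme with a formyl transfer from folate, averaged 10.92 ± 0.09, and 1014 of its exon bases are shared with Gm15964 on the opposite strand. Pfas, the glutamine-using enzyme that follows Gart's transfer step, averaged 10.59 ± 0.10.

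Adsl, which acts both on the ring and on the branch to adenine nucleotides, read 9.94, 9.91, 10.0005, 9.96 and 9.98 in tumours 1, 5, 8, 14 and 15 and was the steadiest gene of the set, with an SD of 0.03 and a range of 1.06-fold. Atic, which inserts the last folate-borne carbon and closes the ring, did not follow its neighbours. It stood at 10.77, 10.48, 10.47, 10.68 and 10.71 in tumours 1, 5, 8, 14 and 15, so tumour 8 was lowest for Atic and highest for the other 5 ring genes.

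On the branch to guanine nucleotides, Impdh2, the inosine monophosphate dehydrogenase form of dividing cells, read 11.25, 11.16, 11.18, 11.35 and 11.29 in tumours 1, 5, 8, 14 and 15. Impdh1, its constitutive paralogue, read 9.96, 10.29, 9.93, 10.20 and 10.001 in tumours 1, 5, 8, 14 and 15. Impdh1 was thus highest in tumour 5, where Impdh2 was lowest. Impdh2 exceeded Impdh1 by 1.27 ± 0.17 per exon length, with 0.97 in tumour 5 and 1.25 to 1.39 in the others. Because 39.3% of the 50-base stretches of Impdh2 occur in Impdh2-ps, the count of Impdh2 may be split. Gmps, which makes guanosine monophosphate, averaged 10.67 ± 0.08.

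Among the pyrimidine genes, Cad, whose protein carries the opening steps of the ring, had the highest uncorrected mean, while Ctps stood highest per exon length (9.07, against 8.14 for Cad). Cad read 11.25, 11.02, 11.08, 11.30 and 11.23 in tumours 1, 5, 8, 14 and 15, low in tumours 5 and 8. Dhodh, the mitochondrial dihydroorotate dehydrogenase, read 8.57, 8.60, 8.48, 8.64 and 8.52 in the same tumours and ranked lowest of the set per exon length, at the 42.6th percentile. Umps, which completes uridine monophosphate, averaged 10.01 ± 0.07. The cytidine triphosphate synthase gene Ctps read 10.87, 10.70, 10.93, 10.85 and 10.66 in tumours 1, 5, 8, 14 and 15. Its paralogue Ctps2 read 10.18, 10.30, 10.10, 10.19 and 10.11 in those tumours. Ctps exceeded Ctps2 by 1.13 ± 0.16 per exon length, and by 0.63 with no length subtracted. Ctps2 was highest in tumour 5 (10.30), where Ctps was near its lowest (10.70).

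Among the deoxynucleotide genes Rrm2 stood highest per exon length (10.81), before Dck (9.09) and Rrm1 (8.87). Rrm1, the large subunit (chromosome 7, 102441695 to 102469771, plus strand), read 12.36, 12.12, 12.42, 12.44 and 12.32 in tumours 1, 5, 8, 14 and 15. Rrm2, the small subunit made in S phase (chromosome 12, 24708241 to 24714146, plus strand), read 12.32, 12.08, 12.45, 12.37 and 12.16. Tumour 5 was lowest for both. On the deposited scale Rrm2 minus Rrm1 was -0.06 ± 0.07. After length was subtracted it was 1.93 ± 0.07 with the merged exons of each gene and 1.26 with the longest transcript, so the size of this difference rests on the length used.

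Rrm2b, the p53-induced small subunit of resting cells and a gene outside the 29, read 9.0021, 9.01, 8.81, 8.86 and 8.85 in tumours 1, 5, 8, 14 and 15. Rrm2 exceeded it by 5.09 ± 0.22 per exon length, or 34.1-fold, the largest of the 9 paired differences. With the longest transcript the difference was 4.43 and with no length 3.37, so its size rests on the length used. Tk1, the cytosolic thymidine kinase of S phase, varied most among the 29 genes. It read 9.60, 9.30, 9.70, 9.83 and 9.68 in tumours 1, 5, 8, 14 and 15, a range of 1.44-fold, with tumour 5 low. Tk2, its mitochondrial counterpart, read 9.28, 9.39, 9.50, 9.30 and 9.17, so the 2 ranges overlapped. Tk1 minus Tk2 was -0.25 ± 0.25 with merged exons, 0.29 with no length and 0.25 with the longest transcript, so no order of the 2 kinases held. Dck, the deoxycytidine kinase, averaged 11.00 ± 0.09.

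Each of the 9 paired differences had 1 sign in all 5 tumours with merged exon lengths. The exact two-sided sign-flip permutation test over 5 tumours gave each of them p = 0.063, adjusted 0.063 over 9 pairs. That is the smallest p this design allows, so none could pass 0.05. The order within a pair turned round without the length for Mthfd2 and Mthfd2l, Rrm2 and Rrm1, and Tk1 and Tk2.

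**Figure D2:**
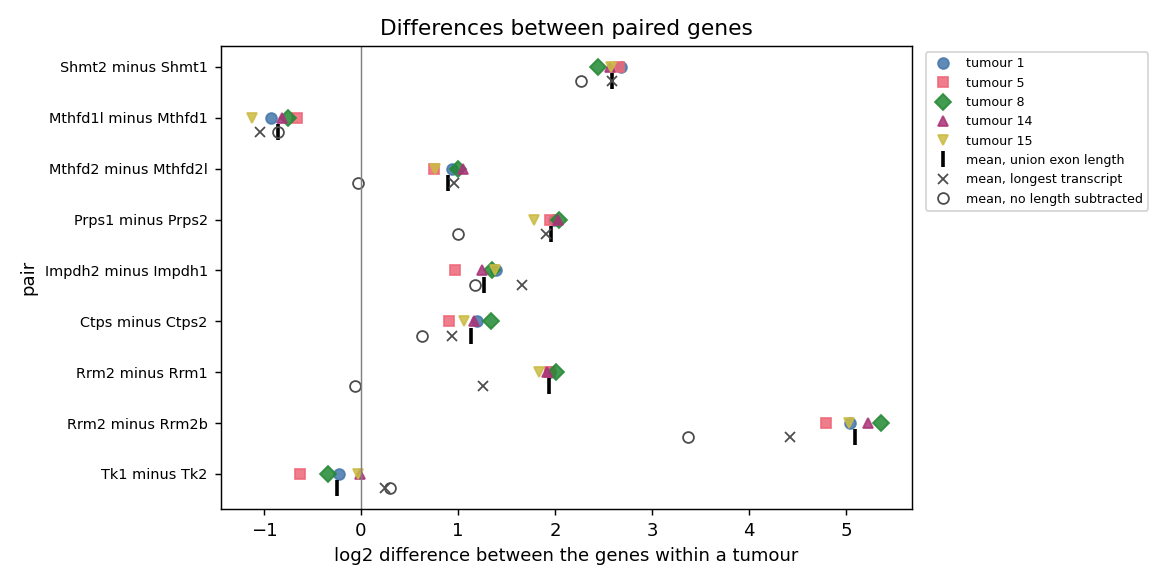
Differences between paired genes within each tumour, per merged exon length (coloured points, log2), with pairs on the vertical axis. Below the points stand the mean with merged exons (bar), with the longest transcript (cross) and with no length subtracted (circle); Rrm2 minus Rrm2b is furthest from 0 at 5.09, and Tk1 minus Tk2 lies on either side of 0 according to the length used.

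To show sequence beside these values, stretches before the annotated start are given for Psat1, the serine gene with the highest level per exon length, for Phgdh, its neighbour in the pathway, and for both reductase subunits. They are from RefSeq on GRCm38.p6, 5′ to 3′ on the gene's strand, without bases that GENCODE places in an exon. Capitals mark CCAAT, a promoter element bound by the factor NF-Y, read on either strand. The regions are chr19:15925060-15925309 for Psat1 and chr3:98339991-98340219 for Phgdh, both minus strand, and chr7:102441445-102441694 for Rrm1 and chr12:24708004-24708240 for Rrm2, both plus strand. The Psat1 stretch lies before a RefSeq start within the gene's GENCODE span.
Psat1: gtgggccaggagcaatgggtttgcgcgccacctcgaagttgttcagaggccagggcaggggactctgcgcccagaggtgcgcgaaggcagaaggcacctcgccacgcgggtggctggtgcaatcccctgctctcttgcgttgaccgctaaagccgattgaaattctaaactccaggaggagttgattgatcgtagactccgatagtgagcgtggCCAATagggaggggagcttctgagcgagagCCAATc
Phgdh: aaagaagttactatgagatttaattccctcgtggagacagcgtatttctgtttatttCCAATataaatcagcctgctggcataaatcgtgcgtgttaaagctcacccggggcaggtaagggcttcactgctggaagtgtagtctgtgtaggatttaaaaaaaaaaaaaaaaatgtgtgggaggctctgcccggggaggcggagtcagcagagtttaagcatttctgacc
Rrm1: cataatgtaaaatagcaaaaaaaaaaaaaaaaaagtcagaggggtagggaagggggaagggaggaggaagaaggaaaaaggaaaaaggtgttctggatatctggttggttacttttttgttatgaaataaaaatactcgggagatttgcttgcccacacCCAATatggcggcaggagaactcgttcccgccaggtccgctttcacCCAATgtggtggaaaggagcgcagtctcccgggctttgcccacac
Rrm2: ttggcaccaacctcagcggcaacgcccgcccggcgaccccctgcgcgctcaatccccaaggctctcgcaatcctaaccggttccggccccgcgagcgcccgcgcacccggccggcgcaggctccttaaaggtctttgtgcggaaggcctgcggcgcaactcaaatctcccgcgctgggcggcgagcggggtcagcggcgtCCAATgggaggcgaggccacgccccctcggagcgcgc

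Of the 29 genes, 27 had at least 1 window of 250 bases before a start in the RefSeq table. CCAAT occurred for 13 of these 27 (48.1%), against 37.5% of all 27025 genes. The E-box CACGTG, a site type for MYC proteins, occurred for 4 of 27 (14.8%), against 6.86%. A site type of E2F factors, searched as TTTGGCG or TTTCCCG or TTTCGCG, occurred for 1 of 27 (3.70%), against 5.27%, and the start of an amino acid response element, TGATGNA, for 2 of 27 (7.41%), against 11.9%. Each motif was read on both strands, and a base could count for more than 1 motif. Unlike the printed stretches, these windows kept exon bases. Of the genes with an E-box only Tyms had it clear of annotated exons. The E2F sites of Ppat lay within exons of Paics, and the CCAAT sites of Mthfd1, Paics and Psph also lay in exon bases. These are matches of letters within short windows, given as a description.

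The 29 genes had about the spread of other genes. The median SD was 0.10, against 0.11 over the 13691 genes whose mean reached 5, and 14 of 29 exceeded that median, which 50.0% of genes do by definition. The highest and lowest tumours lay a median of 1.20-fold apart, against 1.21-fold over all genes. None of the 29 spanned more than 1.5-fold, against 14.7% of all genes, and none more than 2-fold, against 3.79%.

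Small as they were, the differences mostly ran the same way. Tumour 14 held the highest value for 17 of 29 genes, against 15.8% of all genes, and the lowest value for 0 of 29, against 13.0%. Tumour 8 was highest for 8 of 29, against 18.5%, while tumours 1, 5 and 15 were highest for 1, 2 and 1, against 20.2%, 24.1% and 21.4%. Lowest values fell in tumour 5 for 13 of 29, against 24.6%, in tumour 15 for 11, against 22.9%, in tumour 8 for 5, against 22.6%, and in tumour 1 for 0, against 16.9%. In all, 24 of 29 genes had their highest value in tumour 8 or 14 and their lowest in tumour 5 or 15, against 21.9% of all genes. This grouping of tumours was not planned and follows the counts above, so it restates them and adds no separate support. With tumour 14 left out, tumour 8 was highest for 16 of 29, against 24.7% of all genes, and tumour 1 for 7, against 23.4%. With tumour 15 left out, tumour 5 was lowest for 21 of 29, against 29.4%. For 16 of the 29 genes the highest tumour led the next by less than 0.05, so the rank of a gene often rested on a small gap.

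Tumour 14 exceeded tumour 5 for 27 of 29 genes, against 51.2% of all genes, by a median of 0.19 (1.14-fold). The exceptions were Impdh1 and Ctps2, the paralogues of Impdh2 and Ctps. It exceeded tumour 15 for 26 of 29, against 52.4% of all genes, by a median of 0.15. Over tumour 8 it was higher for 21 of 29, against 50.7%, by 0.07, and over tumour 1 for 27 of 29, against 49.6%, by 0.05.

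**Figure D3:**
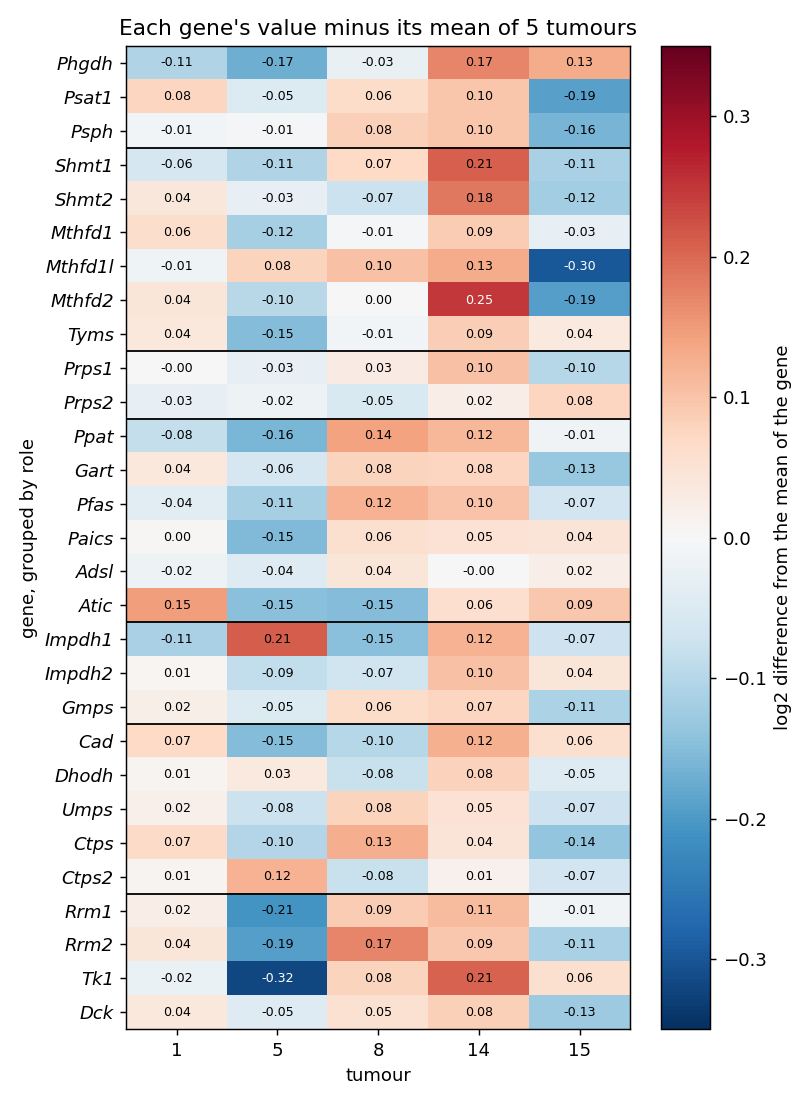
Each gene's value minus its own mean over the 5 tumours (log2; red above, blue below, with the number in each cell), with tumours across and genes down, grouped by role. Tumour 14 is at or above the mean for every gene but Adsl, tumour 5 is lowest for Tk1, Rrm1 and Rrm2, and tumour 15 is lowest for Mthfd1l and Mthfd2.

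By list median deviation every arm was highest in tumour 14, while single genes of the purine ring mostly peaked in tumour 8. All 3 serine genes and all 6 folate genes were highest in tumour 14, or 9 of 9, against 15.8% of all genes. Of the 6 purine ring genes 0 were highest there, 5 were highest in tumour 8, against 18.5% of all genes, and Atic was highest in tumour 1. The gap was narrow in the ring genes: Gart, Paics, Pfas and Ppat lay 0.00, 0.01, 0.02 and 0.03 lower in tumour 14 than in tumour 8. In the one-carbon arm it was wider for some genes, with Shmt2 0.26 and Mthfd2 0.25 higher in tumour 14 than in tumour 8. For other serine and folate genes the lead of tumour 14 was also narrow. Over the next tumour it was 0.01 for Psph, 0.02 for Psat1, 0.03 for Mthfd1 and Mthfd1l, 0.04 for Phgdh and 0.05 for Tyms. It was 0.14 for Shmt1, 0.15 for Shmt2 and 0.21 for Mthfd2.

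The low tumour differed too. Tumour 5 was lowest for 3 of the 4 deoxynucleotide genes, with a median deviation of -0.26 from the median of the other 4 tumours, and for 4 of the 6 ring genes (-0.17). Tumour 15 was lowest for 4 of the 6 folate genes (-0.12) and 2 of the 3 serine genes (-0.20). Of all genes, 24.6% were lowest in tumour 5 and 22.9% in tumour 15. Over all 29 genes the median deviation was 0.01 in tumour 1, -0.11 in tumour 5, 0.05 in tumour 8, 0.11 in tumour 14 and -0.08 in tumour 15. Without tumour 5, 15 or 14 the value of tumour 8 was 0.015, 0.03 or 0.095, and leaving out tumour 1 or 5 moved that of tumour 15 to -0.12 each time. That of tumour 1 was -0.04 without tumour 5, -0.03 without tumour 15 and 0.05 without tumour 14, so its sign was not stable. Over all genes whose mean reached 5 it stayed between -0.01 and 0.01.

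The order of the tumours was also that of DNA replication genes. A list of 25 such genes, with none of the 29 among them, had median deviations of 0.02, -0.20, 0.13, 0.18 and -0.17 in tumours 1, 5, 8, 14 and 15. It was highest in tumour 14 for 17 of 25 genes and lowest in tumour 5 for 15 and in tumour 15 for 9. In each of tumours 5, 8, 14 and 15 its median deviation was larger than that of the 29 genes and had the same sign. The median of the 29 genes minus that of the replication list was not corrected for gene length and gives no order of levels. This difference was -0.04, 0.15, -0.01, 0.10 and 0.33 in tumours 1, 5, 8, 14 and 15. Its average was 0.11 ± 0.15 (SD, n = 5), and 0.05 without tumour 15. With means in place of medians the difference was 0.12, 0.20, 0.06, 0.09 and 0.17 in those tumours. The size in tumour 15 thus rests on the summary used. Mitosis genes deviated by -0.20 in tumour 5 and 0.23 in tumour 14, but by 0.01 in tumour 15 and -0.16 in tumour 1.

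A list of 12 genes of the amino acid stress response around ATF4, which is known to induce serine and mitochondrial folate enzymes, was lowest in tumour 15 for 8 genes, with a median deviation of -0.20. It stood at 0.14 in tumour 14 and -0.04 in tumour 5. Slc7a5, an amino acid transporter and the gene of highest uncorrected mean in that list, averaged 13.39 ± 0.20. In tumour 5, where the DNA precursor genes were low, mature granule neuron markers deviated by 1.30, choroid plexus markers by 0.86, oligodendrocyte markers by 0.84, microglia markers by 0.60 and endothelial markers by 0.56. In tumour 15, also low, the same lists deviated by -0.62, -0.10, -0.59, -0.23 and -0.12 in that order. Neural stem cell, oligodendrocyte precursor and pericyte and fibroblast markers deviated by -0.40, -0.34 and -0.23 in tumour 5. In tumour 8 oligodendrocyte markers deviated by 0.49. The part of these cells, of dividing cells or of the stress response in the values of the 29 genes was not tested.

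**Figure D4:**
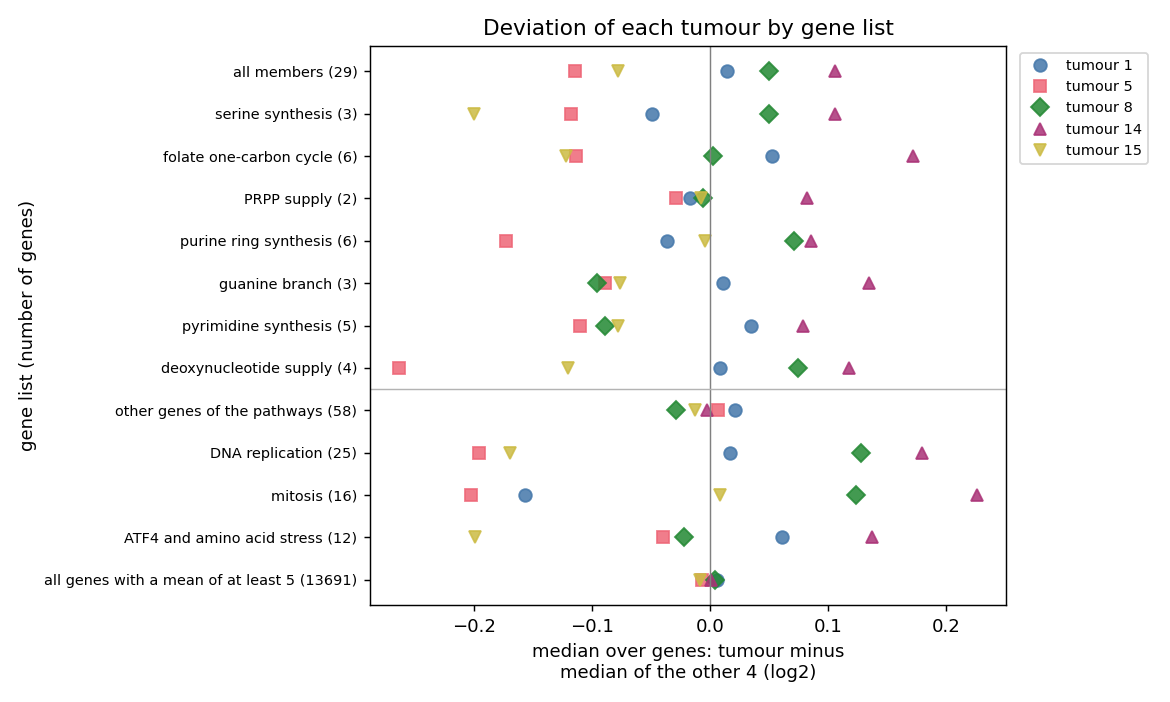
Median deviation of each tumour from the median of its 4 fellows (log2, horizontal axis) for the 29 genes, their 7 role lists and 5 comparison lists (vertical axis, number of genes in brackets). Points are tumours; tumour 14 is rightmost in every role list, while the other genes of the pathways and all genes stay within 0.03 of 0.

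As a list, the other genes of the same pathways did not show this order. Of 58 such genes 13 (22.4%) were highest in tumour 14, against 17 of the 29 (58.6%), and their median deviations lay between -0.03 and 0.02. Among 15 other folate and methionine cycle genes Mat2a, which makes S-adenosylmethionine, had the highest uncorrected mean (12.56 ± 0.09) and the folate carrier gene Slc25a32 the lowest (7.67 ± 0.13). Aldh1l1, a folate dehydrogenase of astrocytes, had the largest SD (0.19) and was highest in tumour 15.

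Of 8 genes of glycine cleavage and serine transport, Slc1a4 had the highest uncorrected mean (10.76 ± 0.18) and Amt the lowest (8.42 ± 0.18). The glycine transporter gene Slc6a9 read 10.83, 10.57, 10.85, 10.75 and 10.18 in tumours 1, 5, 8, 14 and 15, with tumour 15 low. Among 14 other purine genes the ends by uncorrected mean were Adss, which starts the adenine branch, with 11.13 ± 0.03 and the guanine deaminase gene Gda with 4.06 ± 0.17. Adssl1, the muscle-type paralogue of Adss, ranged 2.06-fold, highest in tumour 5.

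Upp1, a uridine phosphorylase of the salvage list, read 8.67, 7.41, 8.19, 8.14 and 9.31 in tumours 1, 5, 8, 14 and 15, a range of 3.73-fold and the widest of the 58. In all, 5 of the 58 spanned more than 1.5-fold. Dctd, the deoxycytidylate deaminase, read 7.64, 7.002, 7.21, 7.42 and 7.92 in the same tumours. Both were highest in tumour 15 and lowest in tumour 5. At the ends of the salvage list by uncorrected mean stood Cmpk1 (10.54 ± 0.07) and Cda (2.36 ± 0.04), and of the other deoxynucleotide list Nme2 (11.13 ± 0.06) and Tymp (5.13 ± 0.14).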

How the data were processed

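Expression was measured by strand-specific mRNA sequencing of papain-dissociated tumour cells in 5 libraries. The values are log2 values deposited by the authors, read as DESeq2 regularised-log values. The submitters' processing notes name STAR 2.4.1, featureCounts from Subread 1.4.6, DESeq2, mm10 and GRCm38. Which annotation, strand setting and gene filter the authors used is not given in the sources used here. Regularised-log values are scaled for library size, and shrinkage makes differences of weakly expressed genes smaller. Of 7 columns, 2 match no sample and were not used. Depth is unknown.

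Lengths came from GENCODE M21, in which 97.5% of symbols matched 1 gene. Medians, counts of highest and lowest tumours, deviations and exact sign-flip permutation tests were computed with scipy 1.17.1, pandas 2.3.3 and numpy 2.4.6 in Python 3.11.15, drawn with matplotlib 3.10.9, and tested on simulated data. Background shares used 13691 genes with a mean of at least 5. No 2 libraries shared an identical value among these genes. The members, lists and pairs were chosen with earlier results of these data known. By rule every member was named, with values in all tumours for genes of a pair and for the highest and lowest mean of each role list. From the lists of other genes of the pathways the highest and lowest mean and the largest SD were named. For the DNA replication and mitosis lists only summaries were given. For the stress list its gene of highest uncorrected mean was also named, and a list of MYC genes is not described. Tumour values of Phgdh, Tyms, Atic and the salvage genes, and the sex-linked and overlapping genes, were added after their values were seen.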

Additional observations from a re-analysis of the deposited data

Results flagged for a closer look

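Outlying tumours were looked for in 47 values, namely the 29 genes, their 9 paired differences, the 7 role list medians and both summaries of the set. With Dixon's 95% critical value of 0.71 for 5 samples, chance flags about 1 in 20, and 2 were found. Paics had a gap of 0.747 of its range, with 11.90 in tumour 5 and 12.05 to 12.10 in the other 4. The median of Prps1 and Prps2 had a gap of 0.863, with 10.18 in tumour 14 and 10.10 to 10.11 in the others, a difference of under 0.1 on the log2 scale.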

How the results depend on the processing

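No paired analysis was possible because there is 1 group. Of 179 alternative values for 29 results, 164 kept the sign of a paired difference, moved another value by less than the spread between tumours or stayed within 1.5 times a count. Some of the 164 could not have differed, since centring each library on its median leaves a paired difference unchanged. Without length, Mthfd2 minus Mthfd2l was -0.028, Rrm2 minus Rrm1 -0.057 and Tk1 minus Tk2 0.29; with the longest transcript Tk1 minus Tk2 was 0.25. Leaving out 1 tumour at a time could not turn the sign of a pair, since each pair had 1 sign in all 5 tumours. Those values also count among the 164. With 1 tumour left out the set's level was 10.39 to 10.47. The set's deviation ran from -0.04 to 0.05 in tumour 1, -0.13 to -0.09 in tumour 5, 0.015 to 0.095 in tumour 8, 0.09 to 0.13 in tumour 14 and -0.12 to -0.05 in tumour 15, and its difference from the replication list from 0.05 to 0.14. Counts moved, since fewer tumours compete. The highest value fell in tumour 1 for 1 to 7 genes, tumour 8 for 8 to 16, tumour 14 for 17 to 23 and tumour 15 for 1 to 3. The lowest fell in tumour 1 for 0 to 5, tumour 5 for 13 to 21, tumour 8 for 5 to 8 and tumour 14 for 0 in every setting. No gene passed 1.5-fold under any setting, an outcome fixed in advance. Leaving out a tumour cannot widen the range of a gene, and the 2-fold limit is stricter. Unknown depth limits what can be said of single genes, and regularised values understate differences at low counts.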
